A study of Mus musculus with 4 samples.

Results

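The transcriptional response to bacterial lipopolysaccharide (LPS) was described in splenic dendritic cells (DC) that lack the scavenger receptor MARCO. The comparison sets the array of MARCO-/- DC with LPS over the array of MARCO-/- DC with PBS, and these are 2 of the 4 arrays in the series. The members were chosen by genotype and treatment label and not by any measured value, though earlier results of these data were known. The other pair is WT DC with PBS and WT DC with LPS, used here only to set the same ratio beside that of MARCO-/- DC. The labels spell the genetic background of all mice as C56BL/6, and the methods name C57BL/6 for the WT mice. Per the study's methods, the MARCO-/- mice were 8 to 12 weeks old, the WT mice were matched to them in age and sex, and the mice themselves received no treatment. The spleens of 5 to 6 mice were pooled, cells were taken by positive selection for CD11c, and the culture ran overnight with either PBS or LPS at 100 ng/ml. The methods describe 3 pools of each genotype, and the sources used here do not say from which pool an array was made. The deletion is carried by the mouse and is not limited to DC.

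DC sense LPS through TLR4, which with MD-2 and CD14 forms the receptor at the cell surface. The adaptors MyD88 and TRIF then carry the signal to the NF-kB factors, which drive cytokine genes, and to the interferon regulatory factors, which drive type I interferon and the genes that answer to it. A DC that has matured in this way is known to stop taking up antigen, to show costimulatory ligands to T cells and to migrate to the T cell zone. MARCO is a class A scavenger receptor that binds bacteria and particles, and it is best known from macrophages.

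Values are intensities that the authors normalized by RMA, on a linear scale, and a ratio is the log2 of LPS over PBS. With 1 array a side there are no replicates, no test and no error of a ratio, and a gene is called higher or lower when it is past the 2-fold threshold of the methods. The median intensity over all probe sets was 4.91 with PBS and 4.72 with LPS in MARCO-/- DC. Values close to these are near the background, so a fold against them has no firm size. Counts were therefore taken over probe sets and genes whose brighter value on the MARCO-/- arrays was at least 32. A gene that reached 32 on 1 array only passed through that array, which favours a call in its direction. Fewer cells of a type and less RNA per cell cannot be told apart in these bulk samples.

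The targeted gene was checked first. Marco had an intensity of 3.95 with PBS and 4.25 with LPS in MARCO-/- DC, and 8.05 and 3.15 in WT DC. The 4 values lie close to the background, and the sources used here do not say whether the probe set lies in the deleted stretch, so Marco says little about the labels. The paper found by RT-PCR that LPS induced MARCO in WT splenic DC and that MARCO-/- cells had none. The WT arrays did not show that rise. Ctse, which encodes cathepsin E, had 476 with PBS and 262 with LPS in MARCO-/- DC, and 33.6 and 8.71 in WT DC. Its intensity was thus higher in MARCO-/- under both treatments. By RT-PCR, the paper found this gene among resting DC in MARCO-/- cells only. The DC label was checked against defining genes. H2-Aa, a chain of MHC class II, had 5231 with PBS and 2035 with LPS, and Cd74, the invariant chain, had 2221 and 1068. Flt3, the receptor of the DC growth factor FLT3L, had 489 and 431, and Cd86 had 260.4 and 399. Itgax, which encodes the CD11c used for the selection, had 621 with PBS and 16.4 with LPS. All of these genes were bright in the PBS culture, while Itgax was below 32 in the LPS culture. Transcripts of other spleen cells were present on both arrays: Hba-a1, an alpha globin, had 6275 and 6792, and Ms4a1, the B cell gene for CD20, had 647 and 884. The 3′ to 5′ signal ratio, a sign of RNA quality, was 1.59 with PBS and 1.66 with LPS for beta-actin and 1.82 and 2.20 for Gapdh. Collagen transcripts were high on the MARCO-/- PBS and WT LPS arrays alone, with values given at the end. An exchange of genotype between arrays of the same treatment would make each LPS over PBS ratio one of different genotypes, and it was not tested.

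The promoters of 4 genes that were higher with LPS are shown because they hold the letters of the NF-kB or interferon-response motifs. They are 300-base windows from RefSeq on GRCm38.p6, each running from 250 bases before a start site to 50 bases after it, on the strand of the gene, with the matched letters in capitals. For NF-kB the letters searched were GGG, any 2 bases, then TTTCC, and for the interferon-stimulated response element (ISRE) they were GAAA, any 2 bases, then GAAA, on both strands. Il6, which encodes interleukin-6, lies on the plus strand at chr5:30012864-30013163, Cxcl1, a neutrophil-attracting chemokine, on the plus strand at chr5:90890995-90891294, Cxcl10, an interferon-induced chemokine, on the minus strand at chr5:92348840-92349139, and Ifit1, an antiviral RNA-binding protein, on the plus strand at chr19:34640639-34640938.
Il6, NF-kB: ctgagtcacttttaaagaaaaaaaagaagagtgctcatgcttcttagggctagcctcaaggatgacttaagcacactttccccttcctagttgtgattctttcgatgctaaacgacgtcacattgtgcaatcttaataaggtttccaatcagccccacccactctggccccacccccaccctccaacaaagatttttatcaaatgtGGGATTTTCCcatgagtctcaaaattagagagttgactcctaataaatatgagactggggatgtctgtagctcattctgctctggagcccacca
Cxcl1, NF-kB: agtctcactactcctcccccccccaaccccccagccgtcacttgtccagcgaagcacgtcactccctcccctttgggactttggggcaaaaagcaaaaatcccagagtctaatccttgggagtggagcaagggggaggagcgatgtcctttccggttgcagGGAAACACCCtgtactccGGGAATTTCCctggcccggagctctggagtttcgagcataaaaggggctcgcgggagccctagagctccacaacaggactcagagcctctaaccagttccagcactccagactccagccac
Cxcl10, ISRE: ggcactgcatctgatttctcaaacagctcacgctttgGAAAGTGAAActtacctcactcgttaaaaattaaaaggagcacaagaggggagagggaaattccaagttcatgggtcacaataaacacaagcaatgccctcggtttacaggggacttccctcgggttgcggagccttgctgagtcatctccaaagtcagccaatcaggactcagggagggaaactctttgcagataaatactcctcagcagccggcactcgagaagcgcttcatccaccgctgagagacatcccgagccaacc
Ifit1, ISRE: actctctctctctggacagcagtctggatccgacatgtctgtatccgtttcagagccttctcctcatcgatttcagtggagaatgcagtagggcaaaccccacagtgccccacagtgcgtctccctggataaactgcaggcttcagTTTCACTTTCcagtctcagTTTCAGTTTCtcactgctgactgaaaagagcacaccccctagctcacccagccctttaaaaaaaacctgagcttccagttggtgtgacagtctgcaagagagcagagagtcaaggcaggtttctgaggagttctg

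Among all 32851 promoter windows of the RefSeq table, 1.63% held the NF-kB letters and 3.44% the ISRE letters. Of the 815 genes called higher with LPS in MARCO-/- DC, 653 had a window, and 3.40% of their 854 windows held the NF-kB letters and 5.62% the ISRE letters. Of the 684 genes called lower, 555 had a window, and the shares among their 759 windows were 2.77% and 3.56%. Genes under 2-fold held them in 1.45% and 2.85% of windows. The ISRE letters were most frequent in the interferon-stimulated groups: 11 of the 25 windows of 20 antiviral genes called higher held them, and so did 7 of the 9 windows of 8 interferon-inducible GTPase genes. The letters TTCNNNGAA of the gamma-activated site (GAS) stood in 7.61% of windows of higher genes, in 8.04% of lower genes in 6.22% of genes under 2-fold and in 8.30% of all windows, and the AP-1 letters TGANTCA in 5.85%, 6.85%, 4.40% and 7.81%. For both motifs the shares of genes called at 2-fold lay between those of genes under 2-fold and of all windows. Genes at least 4-fold higher fell outside that range, with GAS letters in 4.96% of 262 windows and AP-1 letters in 8.40%. In the same 262 windows the NF-kB letters stood in 3.05% and the ISRE letters in 7.25%. Over all genes at 32 or more, those 2 shares were 1.85% and 3.29%. The GAS letters stood in 4 of the 25 antiviral and in 4 of the 9 GTPase windows. A match is a description of the sequence, and no binding was measured.

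LPS was followed by higher and lower transcripts in near equal number. Of 45037 probe sets, 11825 had a brighter value of at least 32, and of these 1568 (13.3%) were called higher with LPS and 1365 (11.5%) lower. Over all probe sets without that minimum, 2317 (5.14%) were higher and 2241 (4.98%) lower. Of the higher probe sets 810 were at 32 or more on both arrays, and of the lower ones 595. With 1 probe set per gene, 6287 genes reached 32, of which 815 (13%) were higher, 684 (10.9%) were lower and 4788 were under 2-fold. These shares are the background for every list that follows. The median log2 ratio over the 6287 genes was 0.11, with a 5th percentile of -1.87 and a 95th percentile of 1.83. At 8-fold, 95 genes were higher and 134 lower. Of the 408 higher genes with several probe sets, 240 had at least 1 further probe set past 2-fold the same way and 2 had a probe set past 2-fold the other way. Of the 354 such lower genes, 222 had a further probe set past 2-fold the same way, and none had a probe set past 2-fold higher. Agreement among probe sets is given below for some of the named genes only. The minimum of 32 falls between Wdr83, with a brighter value of 31.991, and Rprd1a, with 32.008. The 2-fold threshold falls between Cnppd1, which went from 87.3 to 174, and Ubfd1, which went from 50.6 to 101, on the higher side, and between Gbp8, from 178 to 89.0, and Mbnl3, from 54.3 to 27.2, on the lower side.

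The highest ratio was that of Serpinb9b, a serpin of the protease inhibitor family, at 3.35 with PBS and 902 with LPS. Ramp3, a partner protein of the calcitonin receptor-like receptor, had 5.84 and 1107, and Flrt3, a membrane protein with leucine-rich repeats, had 3.75 and 502. These 3 genes were near the background with PBS and among bright transcripts with LPS, at log2 ratios of 8.08, 7.57 and 7.06. The lowest ratio was that of Fos, at 2977 with PBS and 18.2 with LPS. It was followed by Fosb with 328 and 2.76, and by Adamdec1, a secreted metalloprotease, with 395 and 3.64. Their log2 ratios were -7.36, -6.89 and -6.76.

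**Figure D1:**
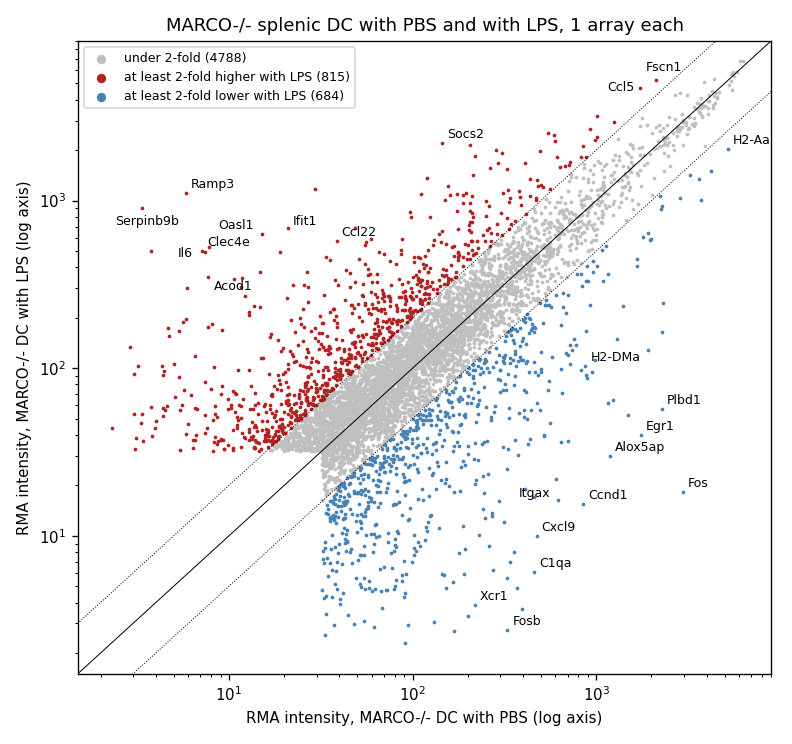
Intensity of 6287 genes on the array of MARCO-/- DC with PBS (x axis, log scale) and with LPS (y axis, log scale), 1 point per gene with a brighter value of at least 32. The solid line marks equal intensity and the dotted lines a 2-fold difference; 815 genes in red lie above the band and 684 in blue below it, with Serpinb9b and Ramp3 at the upper left and Fos and Fosb at the lower right.

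The LPS receptor complex and its adaptors moved little as a group. Of 18 members at 32 or more, 4 were higher and none lower, and the median log2 ratio was 0.27. Ly96, which encodes MD-2, the subunit that binds LPS, had 22.7 with PBS and 109 with LPS, a 4.79-fold difference. The receptor itself stayed dim: Tlr4 had 14.6 and 7.01, under the minimum of 32 on both arrays. Cd14, the co-receptor, had 88.5 and 105, a difference under 2-fold. The other higher members were Traf1 (3.24-fold) and Traf2 (3.04-fold), which are signalling adaptors of TNF receptors, and Ticam1 (2.60-fold), which encodes TRIF. Ticam1 went from 16 to 41.7 and was under 2-fold once 16 was added to each value.

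Other pattern recognition receptors went both ways. Of 18 Toll-like, NOD, RIG-I-like and related members, 6 were higher and 3 lower. Clec4e, which encodes Mincle, a receptor for mycobacterial glycolipid, had 7.12 with PBS and 499 with LPS, and both of its probe sets were higher. Zbp1, a sensor of Z-form nucleic acid, had 43.5 and 384, Dhx58, which encodes LGP2 of the RIG-I family, had 53.6 and 319.9, and Casp4, which encodes the caspase-11 that binds LPS in the cytosol, had 87.5 and 319.7. All 4 of these genes were higher with LPS at the probe set used, though 1 of the 3 probe sets of Dhx58 passed 2-fold. Tlr3, the endosomal receptor for double-stranded RNA, was lower, at 81.6 with PBS and 5.44 with LPS. Nod1, which senses bacterial peptidoglycan, was also lower, at 222 and 47.6. Pycard, the inflammasome adaptor ASC, was just past the threshold at 2.06-fold lower, and it was under 2-fold when the arrays were centred on the median, with 16 added or with its probe sets averaged.

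Among 13 NF-kB subunits and IkB proteins, 4 were higher and 2 lower, with a median of 0.51. The higher members were genes of the non-canonical arm and 1 IkB protein. Map3k14, which encodes the kinase NIK, had 47.1 with PBS and 239 with LPS. Relb had 387 and 1049.6, Nfkb2 had 74.8 and 197, and Nfkbib, which encodes IkB-beta, had 68.7 and 282. Of the 2 probe sets of Nfkbib, 1 passed 2-fold. Nfkbia, which encodes IkB-alpha, the inhibitor that NF-kB itself induces, was level at 1317 and 1317. The nuclear IkB proteins Nfkbiz (2.31-fold) and Nfkbid (2.28-fold) were lower.

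Feedback inhibitors of TLR signalling went both ways, with 6 of 22 higher and 7 lower. Il1rn, the interleukin-1 receptor antagonist, had 12.9 with PBS and 217 with LPS, and its 3 probe sets were all higher. Il10, an inhibitory cytokine, had 8.61 and 51.0, and Dusp4, a phosphatase of MAP kinases, had 10.6 and 73.2. Atf3, a repressor of cytokine genes, was instead lower, at 893 and 86.9.

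Many of the immediate early factors were lower with LPS at this time. Of 23 AP-1, EGR, NR4A and KLF members, 13 were lower and 2 higher, with a median of -1.50. Fos and Fosb have been given. Egr1, a factor induced within minutes of stimulation, had 1748 with PBS and 40.1 with LPS. Nr4a1, an orphan nuclear receptor, had 1485 and 52.4, and Klf2, a quiescence factor, had 558 and 47.3. The PBS culture thus held these transcripts at high intensity, and the LPS culture did not. Ier3 and Batf were higher: Ier3, a stress-response gene, had 48.7 and 325, and Batf, an AP-1 partner of IRF4 and IRF8, had 26.7 and 64 and was under 2-fold with 16 added.

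Interferon regulatory and STAT factors were mostly higher or level, with 8 of 22 higher and 1 lower. Socs2, an inhibitor of cytokine receptors, had 145 with PBS and 2190.0 with LPS, and all 4 of its probe sets were higher. Stat4, which relays interleukin-12, had 112 and 1094. Irf7, the factor that amplifies type I interferon, had 39.2 and 313. Stat3 was 3.74-fold and Stat5a 3.70-fold higher, and 1 of the 2 probe sets of Stat3 passed 2-fold. Irf8, which directs DC development, was under 2-fold at 672 and 432. Ifngr1, a chain of the interferon-gamma receptor, was the lower member, at 501 and 98.5.

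Antiviral interferon-stimulated genes had the highest share of higher members among the 51 gene lists. Of 29 antiviral members at 32 or more, 28 (96.6%) were higher, none was lower, and the median log2 ratio was 2.73, against 0.11 over all genes. All 29 reached 32 with LPS but only 18 with PBS, so the minimum itself favours higher calls in this list. Oasl1, a 2′-5′ oligoadenylate synthetase-like protein, had 15.1 with PBS and 630.4 with LPS. Ifit1 had 21.0 and 683, Oasl2 had 14.8 and 375, and Ifit3 had 25.7 and 313. Xaf1, an interferon-induced binding partner of XIAP, had 119 and 1364, though its other probe set missed 2-fold. The summed intensity of the list was 2662 with PBS and 13795 with LPS. The member under 2-fold was Samhd1, which depletes nucleotides and blocks retroviruses, at 525 and 920.5. Of 9 interferon-inducible GTPases, which act against intracellular microbes, 8 were higher, with a median of 1.88. Gbp2 had 157 with PBS and 1219 with LPS, Irgm2 had 32.1 and 162, and Iigp1 was under 2-fold at 62.6 and 93.7.

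**Figure D2:**
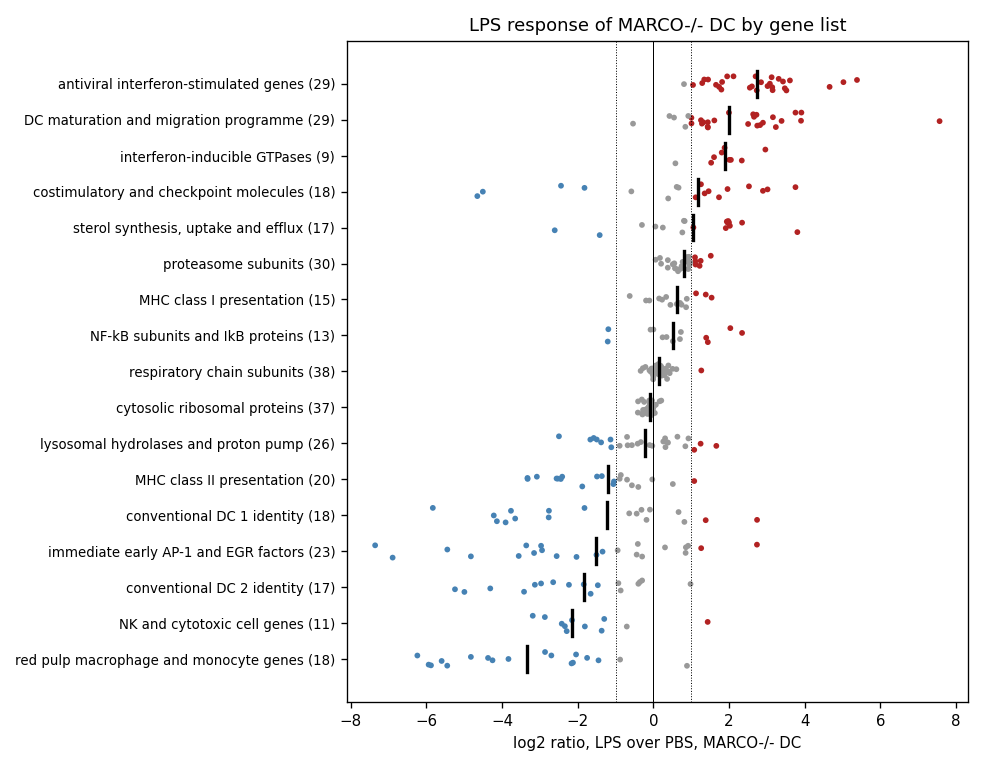
Log2 ratio of LPS over PBS in MARCO-/- DC (x axis) for the members of 17 gene lists (rows, number of members with a brighter value of at least 32 in brackets). Each point is 1 gene, red at least 2-fold higher, blue at least 2-fold lower and grey under 2-fold, and the black bar is the list median, which ran from 2.73 for the antiviral interferon-stimulated genes to -3.35 for the red pulp macrophage and monocyte genes.

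Cytokine genes responded one by one. Of 13 interleukins, TNF family and growth factor genes at 32 or more, 4 were higher and 5 lower. Il6 had 7.37 with PBS and 491 with LPS, a 66.6-fold difference from a value near the background. Il15, which sustains NK and memory T cells, had 20.8 and 264, and Inhba, a subunit of activin A, had 14.1 and 36.5. Inhba was under 2-fold with 16 added and with its probe sets averaged. Other cytokines that are known from the early response to LPS stayed under 2-fold. Il1b had 392 and 604, Il12b, the p40 chain of interleukin-12, had 82.0 and 130.0, and Tnf had 25.4 and 34.0. Il18, a cytokine matured by the inflammasome, was lower, at 257 with PBS and 23.5 with LPS. Ltb, which encodes lymphotoxin-beta, was 2.77-fold lower and Hbegf, a ligand of the EGF receptor, 4.03-fold lower. Il16 and Tgfb1 were the other lower members, at 2.29-fold and 2.44-fold.

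Of 7 CC chemokine ligands at 32 or more, 2 were higher and 5 lower. Ccl22, a ligand of CCR4, had 38.6 with PBS and 577 with LPS. Ccl5, a chemokine that T and NK cells also make, had 1739.6 and 4704. Ccl17 had 5.56 and 12.7, under the minimum of 32. Of the lower ones, Ccl6 went from 189 to 11.4, Ccl8 from 43.6 to 8.11 and Ccl4 from 261 to 94.7. Ccl9 was 2.32-fold and Ccl3 2.03-fold lower. With 16 added both were under 2-fold, as was Ccl3 when the arrays were centred on the median. Of 6 CXC, XC and CX3C ligands, 3 were higher and 2 lower. Cxcl1 had 4.36 with PBS and 57.7 with LPS, Cxcl10 had 24.4 and 198, and Cxcl16, a membrane-bound chemokine that also binds oxidized lipoprotein, had 131 and 581. The NF-kB and ISRE matches of Cxcl1 and Cxcl10 are those printed above. Cxcl9, which like Cxcl10 binds CXCR3, went the other way, from 474 to 9.99, and Xcl1, a chemokine of NK and T cells, from 114 to 46.3.

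Of 11 chemoattractant receptors, 2 were higher and 6 lower. Xcr1, the receptor for XCL1 on conventional DC 1, had 219 with PBS and 3.84 with LPS. Cx3cr1, the fractalkine receptor, had 119.7 and 10.7, and Ccr2, the receptor that brings monocytes out of the marrow, had 63.5 and 9.80. All 3 were bright with PBS and close to the background with LPS. Cxcr5, which guides cells to B cell follicles, was higher at 19.2 and 127, and so was Fpr2, a formyl peptide receptor, at 59.0 and 287.

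The maturation programme was higher almost throughout. Of 29 genes of DC maturation and migration, 24 (82.8%) were higher and none was lower, with a median of 2.0. All 29 reached 32 with LPS and 24 with PBS, which also favours higher calls. Ramp3 led this list. Ccr7 had no probe set that carries its symbol alone and was not counted. Fscn1, which encodes the actin-bundling protein fascin of mature DC dendrites, had 2108 with PBS and 5267 with LPS, and all 4 of its probe sets were higher. Serpinb9, an inhibitor of granzyme B, had 205 and 2148, and Cd200, a membrane ligand that restrains myeloid cells, had 33.9 and 458. Marcksl1, a regulator of actin, was 3.99-fold higher and Tnfrsf9, which encodes 4-1BB, 9.43-fold higher. Il4i1, an enzyme that breaks down aromatic amino acids, was 6.71-fold higher.

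Costimulatory ligands were mostly higher and several inhibitory receptors lower, with 10 of 18 higher and 4 lower and a median of 1.19. Cd80 had 75.3 with PBS and 251 with LPS, and Cd40 had 206 and 446. Cd86 was under 2-fold at the probe set used, while its other probe set was higher. Pvr, a ligand of DNAM-1 and TIGIT, had 45.8 and 371, Il15ra, which presents interleukin-15, had 24.8 and 185, and Tnfsf4, which encodes OX40L, had 23.7 and 137. Cd274, which encodes the inhibitory ligand PD-L1, was also higher, at 208 and 572. The 4 lower members were receptors. Cd244a, a SLAM family receptor, had 148 with PBS and 5.86 with LPS, Havcr2, which encodes TIM-3, had 229.5 and 10.1, Vsir, which encodes VISTA, had 129 and 23.7, and Btla had 639 and 181.

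**Figure D3:**
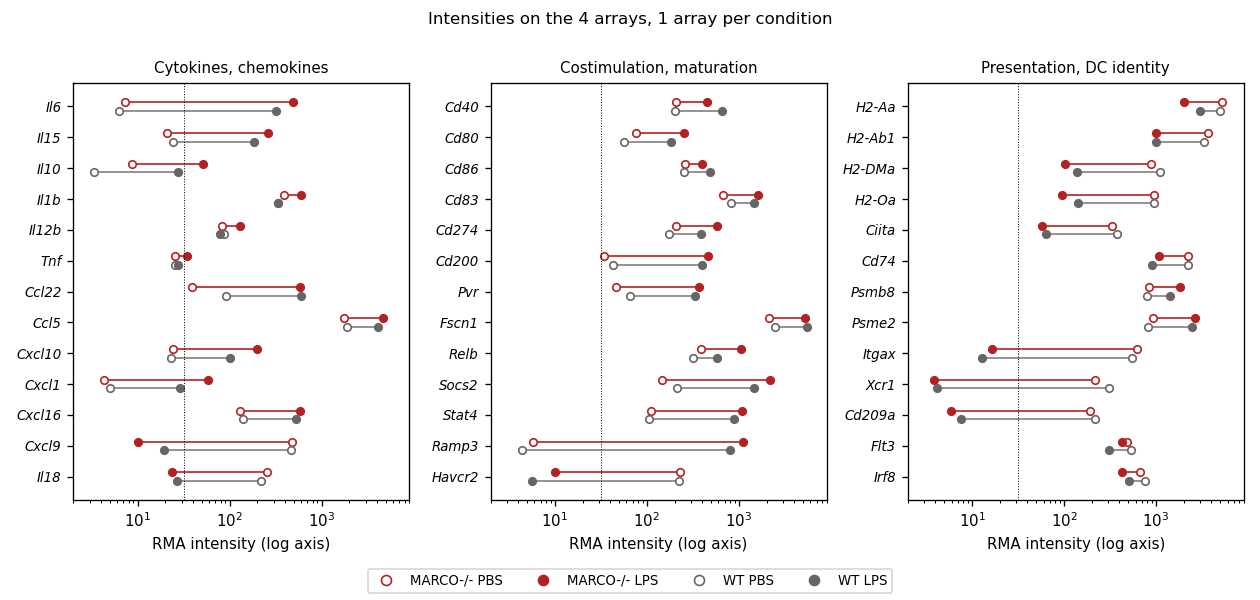
Intensity (x axis, log scale) of 39 genes on the 4 arrays, 1 array per condition, with open circles for PBS and filled circles for LPS, MARCO-/- in red and WT in grey. The dotted line marks an intensity of 32. In MARCO-/- DC the filled circle lies to the right for Il6, Ccl22, Cd200 and Ramp3 and to the left for Cxcl9, H2-DMa, Ciita, Itgax and Xcr1.

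Genes of antigen presentation moved apart by class. Of 20 MHC class II members, 12 (60.0%) were lower and 1 was higher, with a median of -1.21. Ciita, the factor that switches on MHC class II genes, had 334 with PBS and 58.1 with LPS, and its 3 probe sets were all lower. H2-Oa, a chain of the inhibitor of peptide loading, had 952 and 94.8, and H2-DMa, a chain of the loading catalyst, had 872 and 103. Marchf1, the ubiquitin ligase that removes MHC class II and CD86 from the surface of immature DC, had 331 and 33.1. The classical chain H2-Aa was 2.57-fold lower and still among the brightest genes with LPS. Lgmn, an endosomal protease, was the higher member at 2.11-fold. In MHC class I presentation, 3 of 15 were higher and none lower, with a median of 0.62. Psme2, a subunit of the proteasome activator, had 921 with PBS and 2677 with LPS. Psmb8, a subunit of the immunoproteasome, was 2.19-fold and Tapbpl, a peptide editor, 2.61-fold higher. Of the 2 probe sets of Psmb8, 1 passed 2-fold. Among 30 proteasome subunits 6 were higher and none lower, with a median of 0.81, led by Psmd7 at 2.86-fold and Psmb5 at 2.38-fold, and 1 of the 3 probe sets of Psmd7 passed 2-fold.

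Many uptake and clearance receptors were lower. Of 8 Fc receptors, 4 were lower and none higher. Fcgr4, a receptor for IgG2 antibodies, had 359 with PBS and 8.03 with LPS, Fcgr3 had 71.3 and 4.72, and Fcgrt, the neonatal Fc receptor, had 90.3 and 7.03. Fcer1g, the signalling chain that many Fc receptors share, was 2.57-fold lower. Of 10 C-type lectins, 5 were lower and 3 higher. Mrc1, the mannose receptor, had 167 and 2.72, and Cd209a, a DC-SIGN homologue, had 189 and 5.94. Clec4d, a partner of Mincle, was higher, at 12.2 and 271, and so was Ly75, which encodes the uptake receptor DEC-205, at 45.7 and 305. Cd209b was near the background on both arrays, at 4.95 and 4.18. Of 8 scavenger receptors, 6 were lower, among them Cd5l, a secreted macrophage protein, at 271 and 13.1, and Mertk, which binds dying cells, at 99.4 and 6.99.

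Of 10 complement genes 7 were lower and 2 higher, with a median of -3.67. C1qa had 458 with PBS and 6.06 with LPS, C1qb had 328 and 5.58, and C1qc had 339.6 and 7.01. The 3 chains of C1q, the starter of the classical pathway, were near the background with LPS. Cfb, a protease of the alternative pathway, was 3.06-fold higher, and Clu, a chaperone that inhibits lysis, 2.24-fold higher. The C1q genes also mark red pulp macrophages. Of 18 members of the red pulp macrophage and monocyte list, 16 (88.9%) were lower and none higher, with a median of -3.35, and the summed intensity of the list was 7896 with PBS and 1618 with LPS. At 32 or more were 18 members with PBS and 8 with LPS. Fcna, a lectin of complement, had 274 and 6.27. The part of macrophages in the lower uptake, Fc receptor and complement genes was not tested.

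Many genes that mark conventional DC were lower, while those of plasmacytoid DC went both ways. Of 18 conventional DC 1 members, 9 were lower and 2 higher, with a median of -1.23. Beside Xcr1 and Tlr3, Ppt1, a lysosomal thioesterase, had 1161 with PBS and 62.4 with LPS, and Cadm1, an adhesion molecule, had 244 and 18.0 with all 4 probe sets lower. Zbtb46, a factor of all conventional DC, was 2.61-fold higher at the probe set used, which was the only one of its 4 past 2-fold. Of 17 conventional DC 2 members, 11 were lower and none higher, with a median of -1.84. Itgax has been given. Cd7 had 271 and 13.7, Cd300a, an inhibitory receptor, had 218 and 20.4, and Itgam, which encodes CD11b, had 49.0 and 5.59. Of 9 plasmacytoid DC members, 3 were higher and 3 lower. The higher ones were Irf7, Ly6d (3.25-fold) and Atp1b1 (2.51-fold), and the lower ones Lair1 (15-fold), Klra17 (7.78-fold) and Ccr9 (2.51-fold).

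Receptors for cytokines and survival genes also responded. Il2ra, which encodes CD25, had 3.03 with PBS and 92.3 with LPS. Csf2rb, the common beta chain of the GM-CSF receptor, had 292 and 1678, and its paralogue Csf2rb2 had 124 and 799; the probes of these near-identical genes may share signal. Csf1r, the receptor of macrophage growth factor, was lower at 151 and 20.7, as was Il6ra at 239 and 35.5. In all, 5 of 18 receptors were higher and 4 lower. Of 20 BCL2 family and death receptor genes, 8 were higher and 2 lower. Cdkn1a, an inhibitor of the cell cycle, had 65.5 and 491, Bcl2l11, which encodes the death promoter BIM, had 209 and 842 with all 5 probe sets higher, and Fas had 32.6 and 134. Mlkl, the executor of necroptosis, was 5.68-fold higher, and Pmaip1, which encodes NOXA, 2.13-fold lower. Adhesion genes were mixed, with 4 of 41 higher and 10 lower. Myo1g, a membrane-bound myosin, had 211 and 1066, Rhob, a small GTPase of endosomes, had 328 and 25.2, and Itgb2, the beta chain shared by CD11 integrins, had 761 and 149.

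Enzymes that shape the immune milieu were among the strongest responses. Of 24 genes for itaconate, nitric oxide, tryptophan and redox metabolism, 12 were higher and 3 lower. Acod1, which makes itaconate, had 7.73 with PBS and 349.9 with LPS. Ido1, which breaks down tryptophan, had 5.37 and 166, and Arg2, a mitochondrial arginase, had 4.01 and 48.7. Slc7a11, the cystine importer, had 6.54 and 118, and Srxn1, a repair enzyme of peroxiredoxins, had 5.33 and 89.0. Nos2, the inducible nitric oxide synthase, was near the background on both arrays, at 2.72 and 3.14. Mt1, a metal-binding protein, was lower, at 421 and 49.6, as was Kmo, an enzyme of the kynurenine pathway, at 199.8 and 30.6. In lipid mediator synthesis 5 of 8 genes were lower and 1 higher. Alox5ap, which the 5-lipoxygenase needs to make leukotrienes, had 1182 and 29.8. Hpgd, which breaks down prostaglandins, had 94.9 and 2.95, and Ptgs2, which encodes COX-2, had 499 and 125. Pla2g7, which inactivates platelet-activating factor, was higher, at 205 and 749.

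Biosynthetic genes were higher in part. Of 17 sterol genes, 9 were higher and 2 lower, with a median of 1.06, and 11 reached 32 with PBS and 17 with LPS. Idi1, an enzyme of the mevalonate pathway, had 48.8 with PBS and 683 with LPS, and Sqle, the squalene epoxidase, had 20.9 and 106. The 2 lower members export or carry sterol: Apoe had 219 and 35.9, and Abcg1 had 433 and 162. Of 29 amino acid and endoplasmic reticulum stress genes, 10 were higher and none lower, and 22 reached 32 with PBS and 29 with LPS. Asns, the asparagine synthetase, had 5.0 and 106, Psat1, an enzyme of serine synthesis, had 22.4 and 118, and Slc7a5, a transporter of large amino acids, had 32.5 and 134. All of the 10 but Chac1, which breaks down glutathione, make or carry amino acids. Of 20 glycolysis and hypoxia genes, 5 were higher and 2 lower. Pfkfb3, which speeds glycolysis, had 87.6 and 591, Slc2a6, a hexose transporter of lysosomes, had 8.39 and 59.7, and Slc2a3, which encodes the glucose transporter GLUT3, was lower at 438 and 37.9.

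Ribosomal, housekeeping and respiratory chain genes were close to level. None of 37 ribosomal protein genes and none of 11 housekeeping genes was past 2-fold, with medians of -0.09 and 0.10. Of 38 respiratory chain genes 1 was higher, Uqcrq at 2.41-fold, and 1 of its 4 probe sets passed 2-fold. Of 12 heat shock genes 1 was lower, Hspa1b, which had 642 with PBS and 36.3 with LPS. Another, Hspe1, was 2.09-fold higher and under 2-fold after quantile normalization. Of 33 cell cycle genes 4 were higher and 3 lower. The D cyclins differed among themselves: Ccnd1 had 848 with PBS and 15.5 with LPS, Ccnd2 had 303 and 848, and Ccnd3 was 2.29-fold lower, or under 2-fold with 16 added. Of 26 lysosomal genes 7 were lower and 3 higher, with Man2b1, a mannosidase, at 776 and 138 and Npc2, a carrier of cholesterol, at 1012 and 3206. Of 16 genes of TGF-beta and SMAD signalling 2 were higher, Smurf1 (3.45-fold) and Tgif1 (2.07-fold), and 2 lower, Tgfb1 and Smad7 (2.59-fold). Tgif1 was under 2-fold after quantile normalization, after cyclic loess and with 16 added, and Tgfb1 with 16 added.

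Markers of other spleen cells were counted over the list members at 32 or more. Of the measured members, 7 NK, 11 T cell, 2 B cell, 9 erythroid and 17 endothelial genes were under 32. Of 11 NK and cytotoxic cell genes, 9 were lower and 1, Ccl5, was higher, and their median was -2.15. Klra8, an NK cell receptor, had 80.0 with PBS and 8.78 with LPS, and Nkg7, a granule protein, had 194 and 26.5. The alarmins S100a8 and S100a9 of neutrophils had 91.2 and 153 with PBS and were near the background with LPS, at 4.57 and 4.90. The other 14 of 16 measured neutrophil genes were under 32. Of 10 measured platelet genes 1 reached 32, Clec1b, which was 4.47-fold lower. Of 5 T cell genes 2 were lower, Cd8a (6.78-fold), which conventional DC 1 also carry, and Cd2 (3.24-fold). B cell genes were mostly level, with 3 of 18 higher, Cxcr5, Pou2af1 (2.61-fold) and Bach2 (2.14-fold), and 2 lower, Cr2 (2.92-fold) and Cd22 (2.62-fold). Bach2 was under 2-fold with 16 added and with its probe sets averaged. Jchain, the joining chain of secreted antibodies, was 3.17-fold lower, and Prdm1, a factor of plasma cells and of DC, 4.27-fold higher. Of 8 erythroid genes 1 was lower, Slc4a1 at 9.71-fold, and of 4 endothelial genes none was past 2-fold. Whether cells of these types were lost in the LPS culture was not tested.

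WT DC gave a similar order of genes under LPS. The ratios of WT and MARCO-/- DC share no array, but they share the platform and a joint normalization. Over the 6287 genes at 32 or more in MARCO-/- DC, 716 (11.4%) were higher and 993 (15.8%) lower in WT, and the median WT ratio was -0.02. Taking 6472 genes that reached 32 in either pair, the Pearson correlation of the log2 ratios across genes was 0.83 and Spearman's rho 0.82, as a description in which genes are not replicates. In MARCO-/- DC 820 (12.7%) of these were higher and 719 (11.1%) lower, and in WT 762 (11.8%) and 1037 (16%). Higher in both were 570 (8.81%), which are 69.5% of those of MARCO-/- and 74.8% of those of WT. Lower in both were 610 (9.43%), or 84.8% and 58.8%. Il6 had 6.33 and 322 in WT, Fos 3041 and 19.3, Itgax 548 and 12.9, and Xcr1 309 and 4.14. In each of these genes the fold in WT was within 1.5 times of that in MARCO-/- DC.

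**Figure D4:**
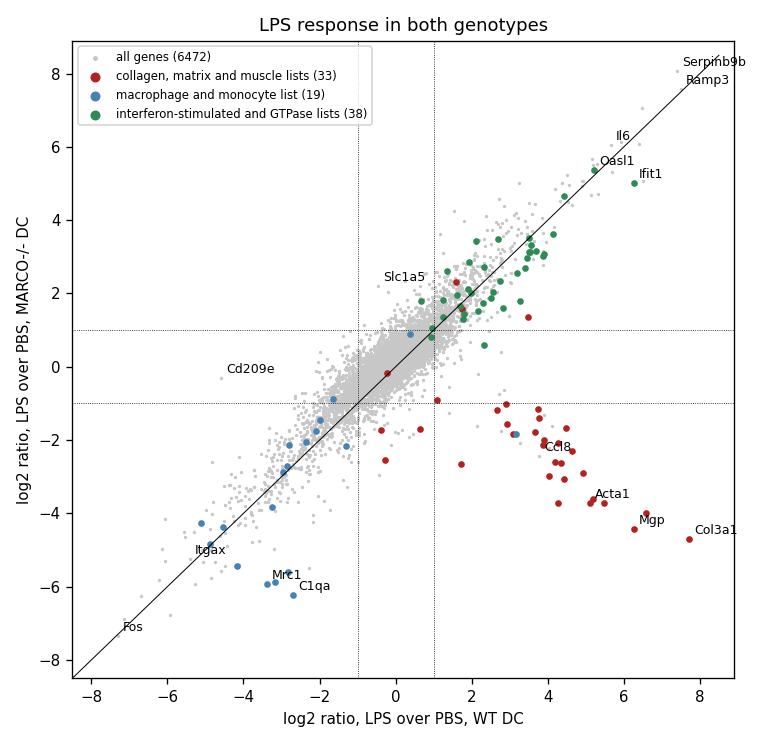
Log2 ratio of LPS over PBS in WT DC (x axis) and in MARCO-/- DC (y axis) for 6472 genes with a brighter value of at least 32 in either pair, 1 point per gene and 1 array per condition. The solid line marks equal ratios and the dotted lines 2-fold. Most genes, and the interferon-stimulated genes in green, lie along the line, while most of the collagen, matrix and muscle genes in red lie at the lower right, lower with LPS in MARCO-/- and higher in WT.

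In 327 (5.05%) of the 6472 genes the MARCO-/- ratio exceeded the WT ratio by 2-fold or more, and in 118 (1.82%) it was smaller by as much. That split turned with the scaling. Of the genes that differed, 73.5% had the higher ratio in MARCO-/-, and the share was 46.2% after quantile normalization (146 and 170 genes), 48.3% after cyclic loess (160 and 171) and 80.3% with arrays centred on the median (428 and 105). No direction is therefore read from it. With 1 array per condition the differences of single genes were not tested either. The DC maturation list had a median of 2.0 in MARCO-/- and 1.47 in WT, with 24 and 19 members higher, and the antiviral list 2.73 and 2.33, with 28 and 26. The GTPase list had 1.88 and 2.55, with 8 and 9 higher, and the MHC class II list -1.21 and -1.61, with 12 lower in each genotype. Members of these lists were chosen at 32 or more on the MARCO-/- arrays alone, which can favour large ratios there. Of the measured antiviral genes, 29 reached 32 on the MARCO-/- LPS array and 25 on the WT LPS array. The WT medians were taken in the deposited scaling only, so no direction is read from these lists either. Cd209e, a DC-SIGN homologue, had 2.91 with PBS and 2.34 with LPS in MARCO-/- DC and 60.4 and 2.51 in WT, so that it was bright on the WT PBS array alone. Slc1a5, a glutamine transporter, had 11.0 and 51.0 in MARCO-/- and 56.4 and 41.1 in WT. Cth, which makes cysteine from cystathionine, had 3.11 and 38.2 in MARCO-/- and 3.30 and 7.36 in WT. The differences of these 3 genes stayed past 2-fold under all 3 of the other scalings. Of the 2 probe sets of Slc1a5, however, only 1 was past 2-fold higher with LPS in MARCO-/- DC. Fcgr4 had 44.7 and 9.21 in WT, and C1qa 239.5 and 36.8.

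A set of stromal genes went in opposite directions. In all, 34 genes (0.525%) were lower with LPS in MARCO-/- DC and higher in WT, and 0 (0.00%) the reverse. Of the 34, 25 are on the lists of collagens, matrix and fibroblast genes, muscle, erythroid and endothelial genes. Col3a1, a fibrillar collagen, had 315 with PBS and 12.1 with LPS in MARCO-/- DC and 4.57 and 959 in WT. Mgp, the matrix Gla protein, had 61.7 and 2.86, and 3.03 and 233. Acta1, the actin of skeletal muscle, had 62.7 and 4.80, and 4.65 and 159. These 3 genes were high on the MARCO-/- PBS array and on the WT LPS array, and near the background on the other two. Over the whole lists, the 19 collagens summed to 515 with PBS and 95.7 with LPS in MARCO-/- DC and to 88.0 and 1539 in WT, with 2, 0, 0 and 7 members at 32 or more. The matrix and fibroblast genes summed to 831 and 433 in MARCO-/- and to 350.0 and 2071 in WT, and the skeletal muscle genes to 621 and 526 and to 339.9 and 1246. Without the genes of those lists the correlation between the genotypes was 0.90 over 6426 genes. These stromal values cannot tell apart other cells in those preparations, an exchange of genotype between same-treatment arrays and an effect of genotype. None of these was tested. The paper reported collagens, matrix Gla protein, periostin and Sparc as higher in resting MARCO-/- DC than in WT. It proposes that TGF-beta signalling is altered in MARCO-/- DC. Its RT-PCR of resting DC found COL1A2 and MMP2 among genes higher in MARCO-/-, and CTGF and DCN among genes lower.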

How the data were processed

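RNA of splenic DC was measured on 4 arrays, 1 for each genotype and treatment. The methods name the Mouse Genome 430 2.0 array. Names of the deposited probe sets, such as that of Marco, carry the letters PM, which the methods do not mention. The deposited intensities had been background-corrected, normalized and summarized per probe set by the authors with RMAexpress, and are linear. Normalization was joint, so a ratio depends on the scaling. Log2 was taken with no offset. Of 45141 probe sets, 104 controls were left out. Of the rest, 28898 have 1 gene symbol, 551 several and 15588 none listed, and symbols were updated by Entrez ID. Each gene was read from 1 probe set, the brightest by mean log2 value of those that carry no other symbol, which gave 17097 genes. Genes without such a probe set, Ccr7 and Nfkb1 among them, were not analysed here. Calls needed 2-fold and a brighter value of at least 32. No test was run, and the number of arrays limits the precision.

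The members, the 51 gene lists and the rule for naming genes were chosen with earlier results of these data known. The rule took the 15 highest and 15 lowest genes, up to 6 members of each list with the largest ratios, the 10 genes each way that differed most from WT, every called member of a list with at most 5, and a set of defining genes. Genes outside it were chosen after their values were seen. Alternatives were quantile normalization, cyclic loess, median centring, other minimums and thresholds, 16 added to each value, and the mean of all probe sets. Steps were tested on simulated data. Python 3.11.15, numpy 2.4.6, pandas 2.3.3, matplotlib 3.10.9, R 4.3.3 and limma 3.58.1 were used. The sources used here name no version of RMAexpress.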

Additional observations from a re-analysis of the deposited data

Results flagged for a closer look

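Genes and lists are named here because the MARCO-/- and WT responses went in opposite directions, each past 2-fold. With 1 array per condition the difference between the genotypes was not tested. The difference is the log2 ratio of LPS over PBS in MARCO-/- DC minus that in WT DC. Among genes of matrix and vessel walls it was -12.42 for Col3a1, -6.77 for Col4a1, -10.70 for Mgp, -9.20 for Postn, which encodes periostin, -7.99 for Sparc, -7.50 for Bgn, which encodes biglycan, and -4.35 for Ccn2, a matricellular growth factor. For Car3, a carbonic anhydrase abundant in muscle, it was -10.58, and for Acta1 -8.81. Over the members at 32 or more on the MARCO-/- arrays, the difference of the list medians was -9.59 for 2 of 19 collagens, -6.02 for 12 of 39 matrix proteins and fibroblast genes and -3.27 for 5 of 25 skeletal muscle genes. All of these members reached 32 with PBS, but only 0, 2 and 2 with LPS. That choice favours lower MARCO-/- ratios, so the size of these 3 differences is not read as support. On the WT LPS array 7, 17 and 9 members of the lists reached 32. Ccl8, a chemokine for monocytes and T cells that is on none of these lists, differed by -6.20: it had 43.6 with PBS and 8.11 with LPS in MARCO-/- DC and 9.22 and 126 in WT.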

How the results depend on the processing

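Scaling changed few calls within MARCO-/- DC. Of the 815 higher genes 766 stayed past 2-fold after quantile normalization, 736 after cyclic loess and 815 with arrays centred on the median, and of the 684 lower genes 684, 684 and 644. With 16 added to each value 602 and 525 stayed, and with each gene's probe sets averaged 675 and 572. None turned 2-fold the other way. Of the 51 list medians 3 changed sign under an alternative. That of the CXC, XC and CX3C chemokine ligands was -0.11 over all measured members. That of the Toll-like, NOD and RIG-I-like receptors, 0.06 in the report's setting, was -0.01 after quantile normalization, -0.04 after cyclic loess and -0.18 over all measured members. That of the heat shock proteins, -0.02, was 0.04 with arrays centred on the median. Over all measured members, 13 list medians other than that of the CXC, XC and CX3C ligands moved by more than 1.5-fold. With 16 added 8 list medians did so, and with probe sets averaged 2. All 51 stayed within 1.5-fold under quantile normalization, cyclic loess and median centring. At 1.5-fold 2907 probe sets and 1566 genes were higher and 2279 and 1132 lower, and at 3-fold 749 and 399 higher and 759 and 385 lower. Without the minimum of 32, 2241 probe sets were lower. Beside WT, at 1.5-fold 1094 genes were higher and 1016 lower in both, and at 3-fold 266 and 330. The ratio was higher in MARCO-/- in 146 genes after quantile normalization and 160 after cyclic loess, in 174 at a minimum of 64, in 581 with no minimum, in 1126 at 1.5-fold and in 47 at 3-fold. It was lower in 184 at a minimum of 16, in 71 at 64, in 433 with no minimum, in 313 at 1.5-fold and in 65 at 3-fold. The genes in opposite directions numbered 52, 21 and 58 at a minimum of 16, of 64 and with none. The cause of these shifts was not tested. No paired analysis was possible because each condition has 1 array. Values near the background limit the size of every fold against them.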

Other observations

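Several of the strongest responses belong to genes on none of the lists. Tex14, a gene named for its testis expression, had 5.93 with PBS and 302 with LPS in MARCO-/- DC, Stxbp6, a binding partner of syntaxin, had 4.67 and 174, and Fgfbp3, a carrier of fibroblast growth factors, had 5.87 and 197. Pla1a, a phospholipase of phosphatidylserine, had 5.59 and 189, and Car13, a cytosolic carbonic anhydrase, had 4.69 and 157 with its 3 probe sets all higher. All of these were near the background with PBS. On the lower side, Trf, which encodes transferrin, had 201 and 3.33, Ctnnd2, a delta-catenin, had 130.4 and 3.08, and Ifitm6, of the interferon-induced transmembrane family, had 369.8 and 4.88, although 28 of 29 antiviral genes were higher. In WT DC the same 8 genes were past 2-fold in the same direction.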
